A study of Danio rerio with 12 samples.

Results

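The genes of the voltage-gated sodium and calcium channels were examined in zebrafish brain. Members were taken by name: the symbol, ignoring case, had to begin with scn and a digit or with cacna, cacnb or cacng, and the epithelial scnn1 genes were left out. Of 32105 gene identifiers, 62 had such a symbol, and 58 of them passed a minimum of 0.5 CPM (counts scaled to the size of the library) in at least 4 of the 12 libraries, among 19645 genes that did so. The 58 genes comprise 7 sodium channel alpha subunits, 6 sodium channel beta subunits, 18 calcium channel alpha1 subunits (7 of the L type, 6 of the P/Q, N and R types and 5 of the T type), 7 alpha2delta subunits, 7 calcium channel beta subunits and 13 members of the gamma and TARP family. The 4 that did not pass were scn4aa, cacng3a, cacng6a and CACNA2D1. Many symbols in capitals are those of the human orthologue, and 11 symbols stand for more than 1 identifier, so such genes are given with their identifier.

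Bulk RNA sequencing was done on brains of male fish aged 6 months. The strain labels give 3 groups of 4 libraries: wild type, actb1::miR-29sponge and kif5a::miR-29sponge, called the wild type, the actb1 line and the kif5a line here. A sponge is a transgene whose transcript carries binding sites for a microRNA and so takes it away from its targets, here miR-29. Each line is named for a gene, actb1 (a cytoplasmic actin found in nearly every cell) or kif5a (a kinesin motor of neurons). The labels do not describe the constructs further, do not name the wild-type strain background, and do not say how many transgenic founders or animals stand behind the libraries. What the p-values measure is thus the spread among libraries of a group, and that spread may be technical.

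A voltage-gated channel opens a pore when the membrane is depolarised. In sodium and calcium channels the pore and its voltage sensors lie in 1 large protein, the alpha or alpha1 subunit. Sodium channels start and carry the action potential, and their beta subunits are small membrane proteins with an immunoglobulin fold that tune gating and bind the channel to neighbouring cells. Calcium channels turn depolarisation into calcium entry: the P/Q, N and R types trigger transmitter release, the L type serves muscle contraction, hormone release and signalling to the nucleus, and the T type opens near rest and supports rhythmic firing. The cytoplasmic beta and the extracellular alpha2delta subunits bring calcium channels to the membrane. Of the gamma family, the products of CACNG1 and CACNG6 go with the skeletal muscle channel in mammals, while the TARPs (CACNG2, CACNG3, CACNG4, CACNG5, CACNG7 and CACNG8) carry AMPA-type glutamate receptors to the synapse.

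The libraries held 20884576 to 33573243 counts in genes. A list of 17 pan-neuronal genes summed to 7360 to 8778 CPM in 11 libraries and to 6129 CPM in actb1 line library 3, with none at 0 counts in any library. Libraries 3 and 4 of the actb1 line stand apart for the channel genes, as described for the comparison of that line with wild type. Differences of channel genes that rest on them are also given with both left out. A list of rod and cone photoreceptor genes stood at log2 3.03 to 3.92 above the wild-type mean in 5 libraries (actb1 line 1, 2 and 3, kif5a line 2 and 3). It stood between -0.44 and 0.65 in the other libraries. In bulk tissue, fewer cells of a type and less RNA per cell cannot be told apart.

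Levels are compared between genes as CPM per kilobase of transcript, after TMM scaling, which is an RPKM. On this scale the sodium beta subunits summed higher than the sodium alpha subunits, and the gamma and TARP family was the highest calcium channel class. The 6 sodium beta subunits summed to 188 ± 15.9 RPKM (SD, n = 4) and the sodium alpha subunits to 76.4 ± 11.4. For calcium channels, the gamma and TARP family summed to 167 ± 10.7 RPKM, the beta subunits to 97.7 ± 7.25 and the alpha2delta subunits to 50.2 ± 7.97. The alpha1 subunits summed to 48.3 ± 6.92 RPKM for the P/Q, N and R types, 25.3 ± 4.32 for the L type and 19.3 ± 3.21 for the T type. These sums include the 4 genes below the CPM minimum.

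**Figure D1:**
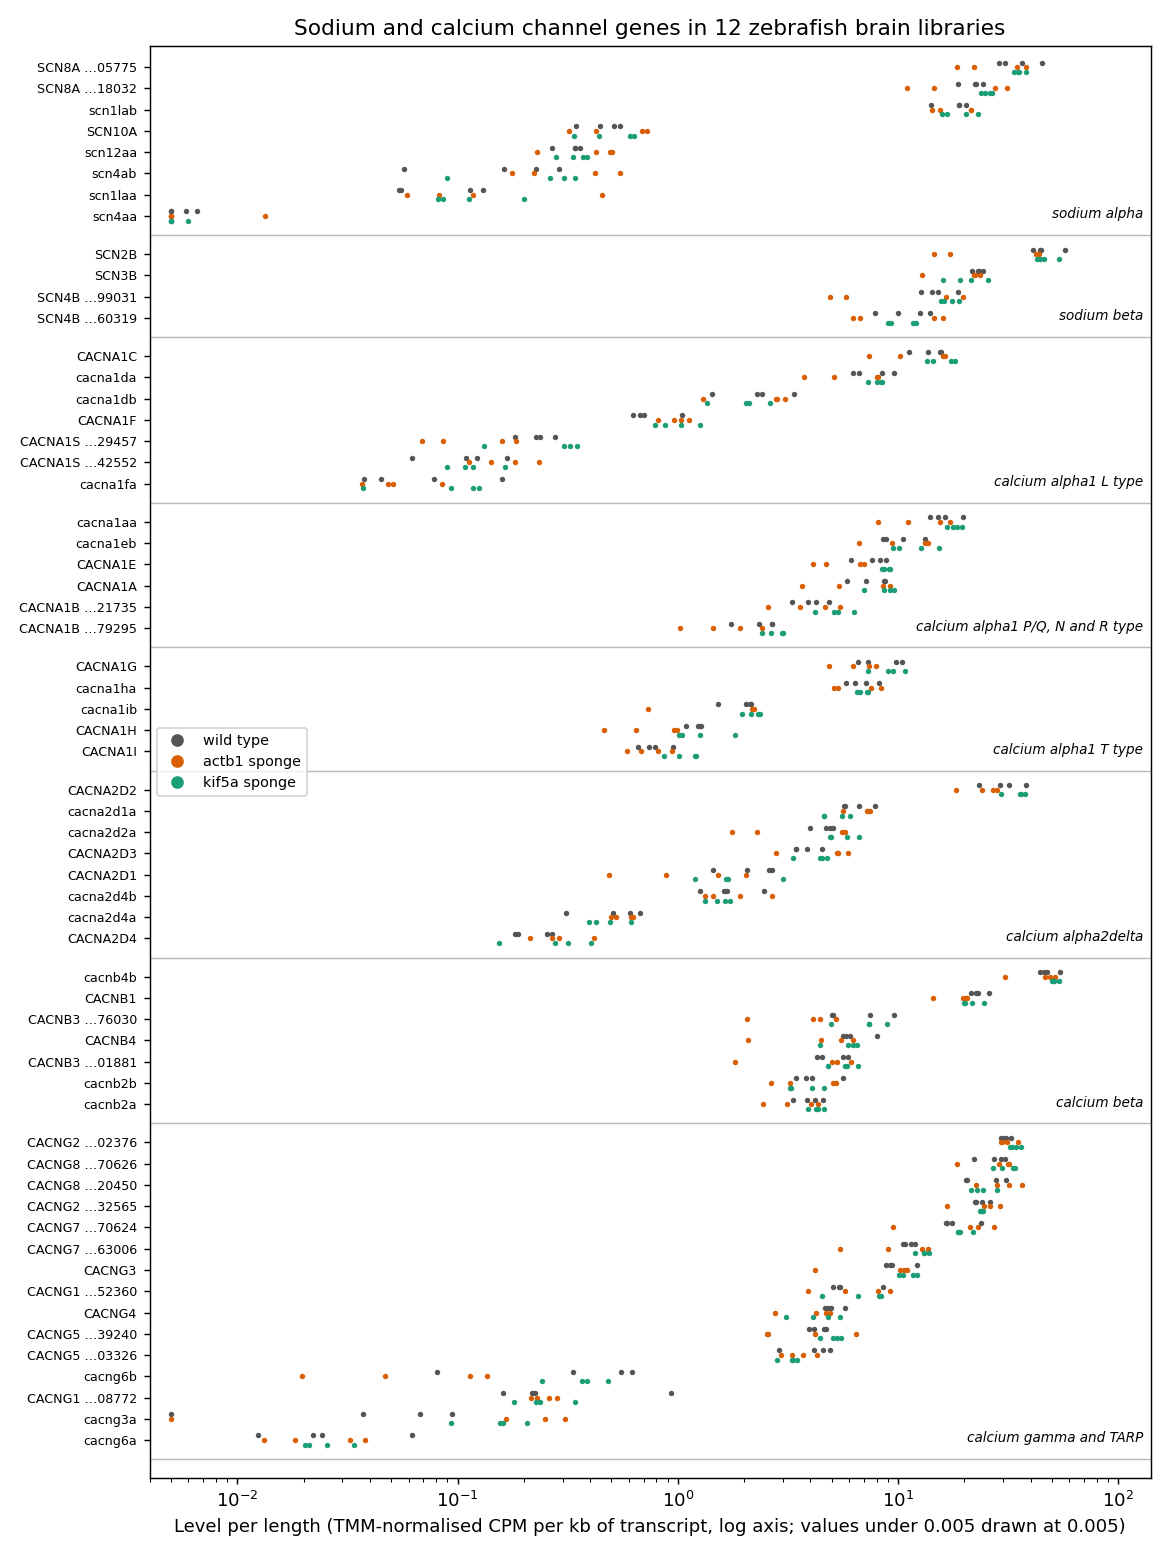
Level per transcript length (RPKM, log axis) of 60 sodium and calcium channel genes in each of the 12 libraries, grouped by subunit class and coloured by strain group; values under 0.005 are drawn at 0.005. In wild type, levels run from 48.0 RPKM for cacnb4b to under 0.1 for cacna1fa and scn1laa among the tested genes.

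Sodium alpha message in wild type was led by 3 genes. The pair named SCN8A, whose mammalian product is the main sodium channel of nodes and axon initial segments, made up 46.0% ± 3.39 (ENSDARG00000005775) and 29.0% ± 1.68 (ENSDARG00000018032) of the summed sodium alpha level (SD, n = 4). scn1lab, a zebrafish co-orthologue of the epilepsy gene SCN1A, made up 23.7% ± 2.22. In level, the first SCN8A gene stood at 35.3 ± 7.29 RPKM, the second at 18.7 to 24.2 over the 4 libraries and scn1lab at 18.0 ± 2.74. The wild-type ranges of the SCN8A pair did not overlap, whereas those of the second SCN8A gene and scn1lab did. The next gene in order, SCN10A, was at 0.462 ± 0.0905 RPKM and did not overlap with scn1lab.

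The 4 remaining sodium alpha genes were lower. scn12aa was at 0.328 ± 0.0406 RPKM, scn4ab at 0.184 ± 0.0983 and scn1laa, the duplicate of scn1lab, at 0.0886 ± 0.0396. Ranges of neighbours from SCN10A down to scn1laa overlapped. scn4aa, which with scn4ab encodes the skeletal muscle sodium channel, had 6 counts over all 12 libraries and was not tested.

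Among the sodium beta subunits, SCN2B, whose product is disulphide-linked to the alpha subunit, stood at 46.6 ± 7.22 RPKM in wild type and SCN3B at 23.1 ± 1.08, and their ranges did not overlap. The genes named SCN4B, whose mammalian product takes part in resurgent sodium current, were at 15.2 ± 2.56 (ENSDARG00000099031) and 11.1 ± 2.73 RPKM (ENSDARG00000060319), again overlapping.

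L-type message was led by CACNA1C, the cardiac and neuronal channel, with 55.5% ± 1.87 of the summed L-type level at 14.0 ± 2.07 RPKM. cacna1da, one of the genes for the low-threshold L-type channel of neurons and hair cells, followed with 30.5% ± 2.06 at 7.74 ± 1.60 RPKM, and its duplicate cacna1db was at 2.37 ± 0.797. CACNA1F, the channel of photoreceptor terminals, stood at 0.764 ± 0.192 RPKM, and cacna1fa, of the same name, at 0.0799 ± 0.0556. CACNA1S, the skeletal muscle voltage sensor, stood at 0.231 ± 0.0388 (ENSDARG00000029457) and 0.116 ± 0.0437 RPKM (ENSDARG00000042552). Wild-type ranges separated every pair of neighbours in this order except the last CACNA1S gene and cacna1fa.

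Of the presynaptic types, cacna1aa (P/Q type) was highest at 16.3 ± 2.48 RPKM, 33.8% ± 2.61 of its class. The R-type genes cacna1eb (10.3 ± 2.15) and CACNA1E (7.72 ± 1.16) and the second P/Q-type gene CACNA1A (7.59 ± 1.35) came next with overlapping ranges. The N-type genes, both named CACNA1B, were lowest, at 4.07 ± 0.653 (ENSDARG00000021735) and 2.36 ± 0.431 RPKM (ENSDARG00000079295), each separated from its neighbour. The T type was led by CACNA1G (8.51 ± 1.84 RPKM) and cacna1ha (6.88 ± 1.05), whose ranges overlapped. cacna1ib (1.96 ± 0.298), CACNA1H (1.22 ± 0.0853) and CACNA1I (0.784 ± 0.124) followed, each separated from the gene above it.

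Of the alpha2delta subunits, which in mammals include the binding sites of gabapentin, CACNA2D2 alone made up 60.5% ± 2.75 of the class at 30.5 ± 6.20 RPKM. cacna2d1a (6.49 ± 1.02) and cacna2d2a (4.67 ± 0.486) were separate from each other, while cacna2d2a and CACNA2D3 (3.81 ± 0.510) overlapped. The 3 genes of the retinal subunit CACNA2D4 were lowest among those tested: cacna2d4b at 1.76 ± 0.501, cacna2d4a at 0.526 ± 0.159 and CACNA2D4 (ENSDARG00000026855) at 0.224 ± 0.0443 RPKM. The untested CACNA2D1 (ENSDARG00000073752) had 137 counts over all libraries on a model of 229 bases, so its level per length is not comparable with the others.

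cacnb4b, related to the mammalian beta subunit lost in the ataxic lethargic mouse, made up 49.1% ± 2.34 of the calcium beta class at 48.0 ± 4.43 RPKM. CACNB1, known from skeletal muscle and brain, followed with 23.8% ± 1.92. The other 5 beta subunits lay between 3.99 ± 0.515 (cacnb2a) and 6.78 ± 2.21 RPKM (CACNB3, ENSDARG00000076030), and every pair of neighbours among them overlapped.

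The TARPs filled most of the gamma class. CACNG2 (stargazin, ENSDARG00000102376) was at 30.8 ± 1.31 RPKM, followed by 2 genes named CACNG8 (27.4 ± 3.69 for ENSDARG00000070626 and 24.9 ± 5.27 for ENSDARG00000020450) and the second CACNG2 gene (23.7 ± 1.75, ENSDARG00000032565). Neighbours among these 4 overlapped. The muscle-type genes of the family were lower than these 4: CACNG1 stood at 6.13 ± 1.62 (ENSDARG00000052360) and 0.384 ± 0.368 RPKM (ENSDARG00000008772), and cacng6b at 0.398 ± 0.244. The first CACNG1 gene nevertheless stood above the TARP genes CACNG4 and CACNG5 in order, and its range overlapped with that of CACNG4. cacng3a (45 counts over all libraries) and cacng6a (27 counts) were not tested. Over all classes, 28 of 54 pairs of neighbours had separate wild-type ranges and 26 overlapped.

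Zebrafish often keep duplicated copies of a gene. Of 25 pairs formed by name, 11 differed by less than 2-fold in wild-type level per length, 5 by 2- to 5-fold and 9 by more than 5-fold. The pair scn1lab and scn1laa differed 203-fold, the CACNB4 pair (cacnb4b and CACNB4) 7.52-fold and the CACNA2D2 pair (CACNA2D2 and cacna2d2a) 6.55-fold. At the other end, the CACNG5 pair differed 1.05-fold, cacnb2a and cacnb2b 1.06-fold, the CACNG8 pair 1.098-fold and the CACNG2 pair 1.30-fold. The 25 pairs include cacna2d1a and CACNA2D1, though the level per length of CACNA2D1 is not comparable with the others. The same gene of a pair was the higher in all 12 libraries for 19 of the 25 pairs, the sponge lines included. The sources used here do not say how reads that match both copies were counted, so the split within a pair of near-identical copies is uncertain.

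The actb1 line was compared with wild type first. No channel gene passed the threshold, an adjusted p under 0.05 (0 of 58, against 0.738% of all 19645 genes, with 0.280% higher and 0.458% lower; quasi-likelihood test of edgeR, p adjusted over all genes by Benjamini-Hochberg). An unadjusted p under 0.05 was reached by 7 genes, all lower in the line (12.1% of the channel genes, against 16.7% of all genes in either direction, 8.85% lower and 7.80% higher). DESeq2, which called 485 of all genes lower against 90 by edgeR, called 1 channel gene (cacng6b, lower) and limma none. With actb1 libraries 3 and 4 left out, none was called either, and the 7 genes at an unadjusted p under 0.05 were then 6 higher (10.3%, against 6.98% of all genes) and 1 lower, cacng6b (1.72%, against 7.72%). The median log2 difference of the 58 genes was -0.12 (all genes, -0.03), with 37 of 58 negative (63.8%, against 53.9% of all genes) and 21 positive (36.2%, against 46.1%). For 45 of 58 the 95% interval of the difference lay within 2-fold either way, a share of 77.6% beside 75.4% for all genes.

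The libraries of the actb1 line differed among themselves more than the groups did. Relative to the wild-type mean, the median channel gene stood at log2 0.16 in library 1, 0.18 in library 2, -0.49 in library 3 and -0.41 in library 4. The wild-type libraries lay between -0.19 and 0.15 and the kif5a libraries between 0.04 and 0.20. Library 3 or 4 of the actb1 line was the lowest of all 12 for 44 of the 58 channel genes (75.9%, against 41.4% of all genes), and these were the 2 lowest libraries for 22 (37.9%, against 9.22%). Without library 3 the median difference was 0.04, without library 4 it was -0.05, and without both it was 0.17 with 40 of 58 positive, so the direction of the median rests on these libraries. The median and the positive share over all genes in these fits are not given here, so a shift of all genes is not told apart.

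**Figure D2:**
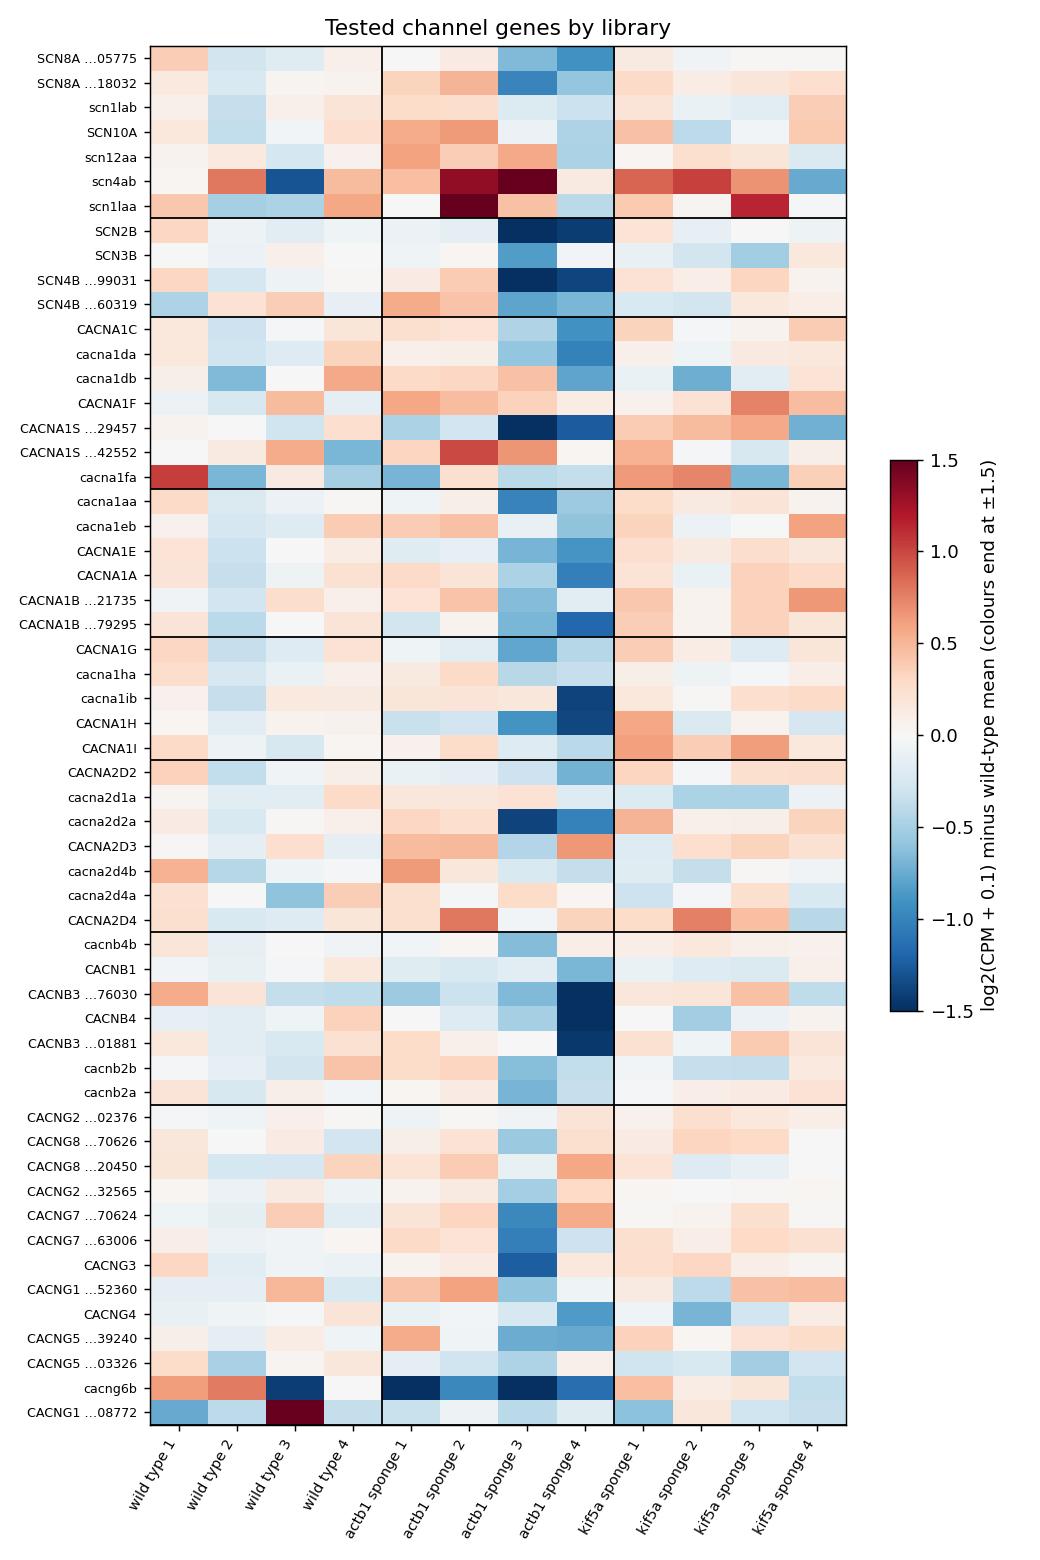
log2 of the level of 56 tested channel genes in each library relative to the wild-type mean (pseudocount 0.1 CPM, colour scale cut at 1.5), rows grouped by subunit class. The columns of actb1 line libraries 3 and 4 are the lowest, with medians over all 58 genes of -0.49 and -0.41, while libraries 1 and 2 of the same line stand at 0.16 and 0.18.

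The classes were low in libraries 3 and 4 to different degrees. All 6 sodium beta subunits had their lowest value of the 12 libraries in library 3, as did 41.4% of the channel genes and 23.6% of all genes. The median of the sodium beta subunits stood at log2 -1.22 in library 3 and at -0.40 in library 4. SCN2B was at 151, 116, 108 and 117 CPM in wild type, at 115, 111, 38.6 and 45.4 in the actb1 line, and at 141, 113, 122 and 116 in the kif5a line. Here libraries 3 and 4 were both low and the other 2 lay within the wild-type range. SCN2B differed from wild type by log2 -0.67 ± 0.30 (SE; unadjusted p = 0.0464, adjusted p = 0.291 by edgeR), lower than the wild-type mean in 4 of 4 libraries. Without libraries 3 and 4 the difference of SCN2B was -0.13 ± 0.13 (adjusted p = 0.682).

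The class medians of the alpha1 and calcium beta subunits were low in both libraries, though not every gene was. For example, 4 of 7 L-type genes in library 3 and 6 of 7 calcium beta genes in library 4 lay below the wild-type mean. The median of the P/Q, N and R types was -0.67 in library 3 and -0.74 in library 4, that of the L type -0.43 and -0.80, that of the T type -0.41 and -0.42, and that of the beta subunits -0.64 and -0.68. The gamma and TARP family parted the 2 libraries: in library 3 all 13 genes lay below the wild-type mean with a median of -0.55, whereas in library 4 only 6 did and the median was 0.08. CACNG3, for example, stood at 18.2 CPM in library 3 and 47.7 in library 4, beside 38.3 to 53.3 in wild type. The alpha2delta subunits stood at -0.23 and -0.19.

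The sodium alpha class had a median of -0.09 in library 3, within the range of the wild-type libraries (-0.27 to 0.19), and of -0.47 in library 4. Its highest genes, the SCN8A pair, were low in both. SCN8A (ENSDARG00000005775) was at 306, 196, 209 and 250.1 CPM in wild type, at 235, 259, 150.0 and 126 in the actb1 line, and at 259.9, 228, 239 and 240.3 in the kif5a line. Its duplicate ENSDARG00000018032 was at 146, 113, 136 and 137 CPM in wild type, at 166, 189, 66.6 and 88.2 in the actb1 line, and at 161, 143, 150.0 and 158 in the kif5a line. For both, libraries 3 and 4 of the actb1 line lay below all others. scn1lab was less far from the rest, at 119 to 172 CPM in wild type and 131 and 121 in those libraries. The low-level genes scn4ab and scn12aa were not low in library 3, at 3.99 and 2.85 CPM beside wild-type ranges that end at 2.1 for both.

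CACNA1C was at 76.6 to 107 CPM in wild type, at 112, 109.5, 69.7 and 50.6 in the actb1 line and at 93.1 to 124 in the kif5a line. cacna1aa was at 154 to 218 CPM in wild type, at 171, 189.6, 89.3 and 122.5 in the actb1 line and at 185 to 217 in the kif5a line. In both genes libraries 3 and 4 of the actb1 line lay below every other library. cacnb4b was at 169 to 208 CPM in wild type, at 178.5, 187, 116.5 and 197 in the actb1 line and at 191 to 205 in the kif5a line, so library 3 was low and library 4 was not. CACNG2 (ENSDARG00000102376) was at 64.5, 68.6, 65.1 and 77.3 CPM in the actb1 line, beside 64.7 to 71.4 in wild type, and was not low in library 3. CACNA1G was at 58.8 to 92.7 CPM in wild type, at 71.2, 66.1, 43.4 and 55.7 in the actb1 line and at 65.2 to 96.4 in the kif5a line.

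For scn4ab, CACNG1 (ENSDARG00000052360), cacna2d4b and CACNA1F, which are known from skeletal muscle or retina, the ranges of the groups overlapped. Those of CACNB1 (actb1 line and wild type) and cacng6b (the lines), also known from muscle, did not and are given below. scn4ab was at 0.184 ± 0.0983 RPKM in wild type, 0.250 ± 0.111 in the kif5a line and 0.342 ± 0.173 in the actb1 line (SD, n = 4). CACNG1 (ENSDARG00000052360) was at 3.88 to 6.52, 2.99 to 6.99 and 3.46 to 6.36 CPM in wild type, the actb1 line and the kif5a line, and cacna2d4b at 4.95 to 9.61, 5.21 to 10.5 and 5.19 to 6.79 CPM. CACNA1F was at 8.08, 7.41 and 6.84 CPM in the 3 actb1 libraries high in photoreceptor genes and at 5.81 in library 4, beside 4.51 to 7.51 in wild type.

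The level of long transcripts also set these libraries apart. Among 1543 tested genes with transcripts of at least 6 kb, the median stood at log2 -0.23 in library 3 and -0.24 in library 4, and between -0.09 and 0.10 in the other 10 libraries. The 22 channel genes of that length stood at -0.44 and -0.56, and the 36 shorter ones at -0.53 and -0.32. With the trend over transcript length removed, the median difference between the actb1 line and wild type was -0.07. The neuronal marker lists did not set both libraries apart. The 17 pan-neuronal genes averaged -0.31 in library 3 and 0.13 in library 4, and 14 GABAergic genes averaged -0.68 and 0.12. For 15 glutamatergic genes the values were -0.02 and -0.21, and for 6 Purkinje cell genes -0.08 and 0.24. The photoreceptor list stood at 3.92 in library 3 and -0.37 in library 4, beside 3.77 and 3.03 in libraries 1 and 2 of the line. The part of transcript length, cell makeup or RNA quality in the low channel levels was not tested.

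The channel gene of smallest p in this comparison was cacng6b, with 21, 26, 3 and 10 counts in wild type, 2, 5, 1 and 4 in the actb1 line and 21, 15, 14 and 11 in the kif5a line. As CPM it stood at 0.783, 0.881, 0.114 and 0.474, at 0.0665, 0.193, 0.0279 and 0.161, and at 0.679, 0.519, 0.550 and 0.343. Wild-type library 3 lay within the range of the actb1 line and the other wild-type libraries above it. The log2 difference was -2.36 ± 0.64 (SE; adjusted p = 0.111 by edgeR), below the wild-type mean in 4 of 4 libraries. DESeq2 gave -2.38 with an adjusted p of 0.0375, and edgeR without wild-type library 3 gave -2.70 with 0.0344; leaving out 1 library at a time gave adjusted p from 0.0344 to 0.239. Without actb1 libraries 3 and 4 the difference was -2.12 ± 0.80 (adjusted p = 0.266). It had 133 counts over all 12 libraries. It passed the minimum of 0.5 CPM only through libraries of wild type and the kif5a line, as every actb1 library lay below it. Its rank and difference are thus those of a gene that entered through the groups where it is high.

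CACNA1E, an R-type gene, was at 91.3, 63.5, 79.2 and 85.8 CPM in wild type and at 69.9, 72.6, 48.8 and 42.7 in the actb1 line, with overlapping ranges. Its log2 difference was -0.45 ± 0.16 (adjusted p = 0.201 by edgeR). Only CACNA1H and CACNB1 had every actb1 library below every wild-type library (2 of 58 or 3.45%, against 5.25% of all genes), and none had every one above (4.08% of all genes). CACNA1H, a T-type gene, was at 7.94, 6.98, 8.08 and 8.15 CPM in wild type and 6.12, 6.37, 4.14 and 2.95 in the line, a log2 difference of -0.67 ± 0.25 (adjusted p = 0.209). CACNB1 was at 66.0, 62.8, 67.1 and 75.4 CPM and 59.4, 57.7, 59.95 and 42.2, a difference of -0.31 ± 0.12 (adjusted p = 0.221). In both genes libraries 1 and 2 of the line were closer to wild type than library 4. Without libraries 3 and 4 the difference was -0.17 ± 0.12 for CACNA1E, -0.32 ± 0.22 for CACNA1H and -0.21 ± 0.10 for CACNB1 (adjusted p = 0.533, 0.515 and 0.352). The duplicates of higher level per length differed less in the fit of all libraries, cacna1eb by 0.06 and cacna1ha by -0.07.

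The remaining genes with an unadjusted p under 0.05 were a beta subunit and a muscle gene. CACNB3 (ENSDARG00000076030) was at 11.3, 8.77, 5.95 and 5.87 CPM in wild type and at 5.22, 6.14, 4.81 and 2.42 in the actb1 line (log2 -0.78 ± 0.30, adjusted p = 0.218 by edgeR). CACNA1S (ENSDARG00000029457) was at 1.34, 1.29, 1.03 and 1.56 CPM and at 0.898, 1.04, 0.391 and 0.484 (log2 -0.89 ± 0.38, adjusted p = 0.264). Both ranges overlapped. Without libraries 3 and 4 the differences were -0.49 ± 0.30 and -0.42 ± 0.39 (adjusted p = 0.461 and 0.625). In the fit of all libraries the second CACNB3 gene (ENSDARG00000001881) differed by -0.15. The second CACNA1S gene (ENSDARG00000042552) differed by 0.53, in the other direction.

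By class, the 7 calcium beta and 5 T-type genes were all negative, with medians of -0.20 and -0.09, and 5 of 7 sodium alpha genes were positive, with a median of 0.23. The 2 negative sodium alpha genes were the SCN8A pair (-0.32 and -0.06), the highest of the class. The summed sodium alpha level was 69.1 ± 23.1 RPKM in the actb1 line and 76.4 ± 11.4 in wild type (SD, n = 4). Of the other classes, 5 of 6 sodium beta, 5 of 6 P/Q, N and R-type, 4 of 7 L-type, 2 of 7 alpha2delta and 7 of 13 gamma and TARP genes were negative. No gene of any class was called. Without libraries 3 and 4 the calcium beta median was -0.01, the T-type median 0.16 and the sodium alpha median 0.50.

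The kif5a line was next compared with the same wild-type libraries. No channel gene was called (0 of 58, against 0.534% of all genes by edgeR, with 0.112% higher and 0.422% lower), and DESeq2 and limma called none either. An unadjusted p under 0.05 was reached by 2 genes, CACNA1I higher and cacna2d1a lower (3.45%, against 11.3% of all genes, with 4.54% higher and 6.78% lower). The median log2 difference was 0.14 (all genes, -0.01), with 43 of 58 positive (74.1%, against 48.9% of all genes) and 15 negative (25.9%, against 51.1%). It ranged from 0.07 without wild-type library 2, the lowest of the wild-type libraries for these genes, to 0.19 without wild-type library 1. With actb1 libraries 3 and 4 left out of the shared fit, 9 channel genes had an unadjusted p under 0.05 in this comparison (15.5%, against 18.6% of all genes) and none was called. Of these, 8 were higher (13.8%, against 8.70% of all genes) and 1 lower (1.72%, against 9.85%). The 95% interval lay within 2-fold either way for 51 of 58 genes (87.9%, against 78.4% of all genes).

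CACNA1I, a T-type gene, was at 7.34, 5.69, 5.07 and 6.11 CPM in wild type and at 9.25, 7.79, 9.34 and 6.70 in the kif5a line. The ranges overlapped through library 4 of the line, and the log2 difference was 0.45 ± 0.18 (unadjusted p = 0.0290, adjusted p = 0.374 by edgeR). cacna2d1a was at 24.7, 21.4, 21.3 and 29.4 CPM in wild type and at 20.7, 17.3, 17.2 and 22.5 in the line, a difference of -0.32 ± 0.14 (unadjusted p = 0.0436, adjusted p = 0.426). It lay below the wild-type mean in 4 of 4 kif5a libraries. No channel gene had every kif5a library below every wild-type one (4.99% of all genes).

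The next genes by p were small in size. CACNG5 (ENSDARG00000003326) was at 10.1, 5.89, 8.54 and 9.38 CPM in wild type and at 6.76, 7.09, 5.77 and 6.79 in the kif5a line (log2 -0.36 ± 0.18, adjusted p = 0.477 by edgeR). CACNA1F was at 5.03, 4.51, 7.51 and 4.83 CPM and at 5.63, 6.26, 9.07 and 7.42 (log2 0.37 ± 0.20, adjusted p = 0.529). CACNA1F is the photoreceptor-terminal gene: its levels were 6.26 and 9.07 in the kif5a libraries high in photoreceptor genes and 5.63 and 7.42 in the others, which interleave. CACNG2 (ENSDARG00000102376) was at 66.6, 64.7, 71.4 and 68.3 CPM in wild type and at 70.6, 79.8, 75.7 and 72.3 in the kif5a line (log2 0.14 ± 0.08, adjusted p = 0.557).

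All 7 sodium alpha, all 6 P/Q, N and R-type and all 5 T-type genes had a positive difference, with medians of 0.14, 0.20 and 0.11, and none was called. Positive differences were fewer elsewhere: 3 of 6 sodium beta, 6 of 7 L-type, 4 of 7 alpha2delta, 4 of 7 calcium beta and 8 of 13 gamma and TARP genes. Of all genes, 48.9% were positive. Wild-type library 2 was low in the 3 all-positive classes (medians -0.27, -0.30 and -0.24), so their genes are not separate evidence. Class values without it are not given here.

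**Figure D3:**
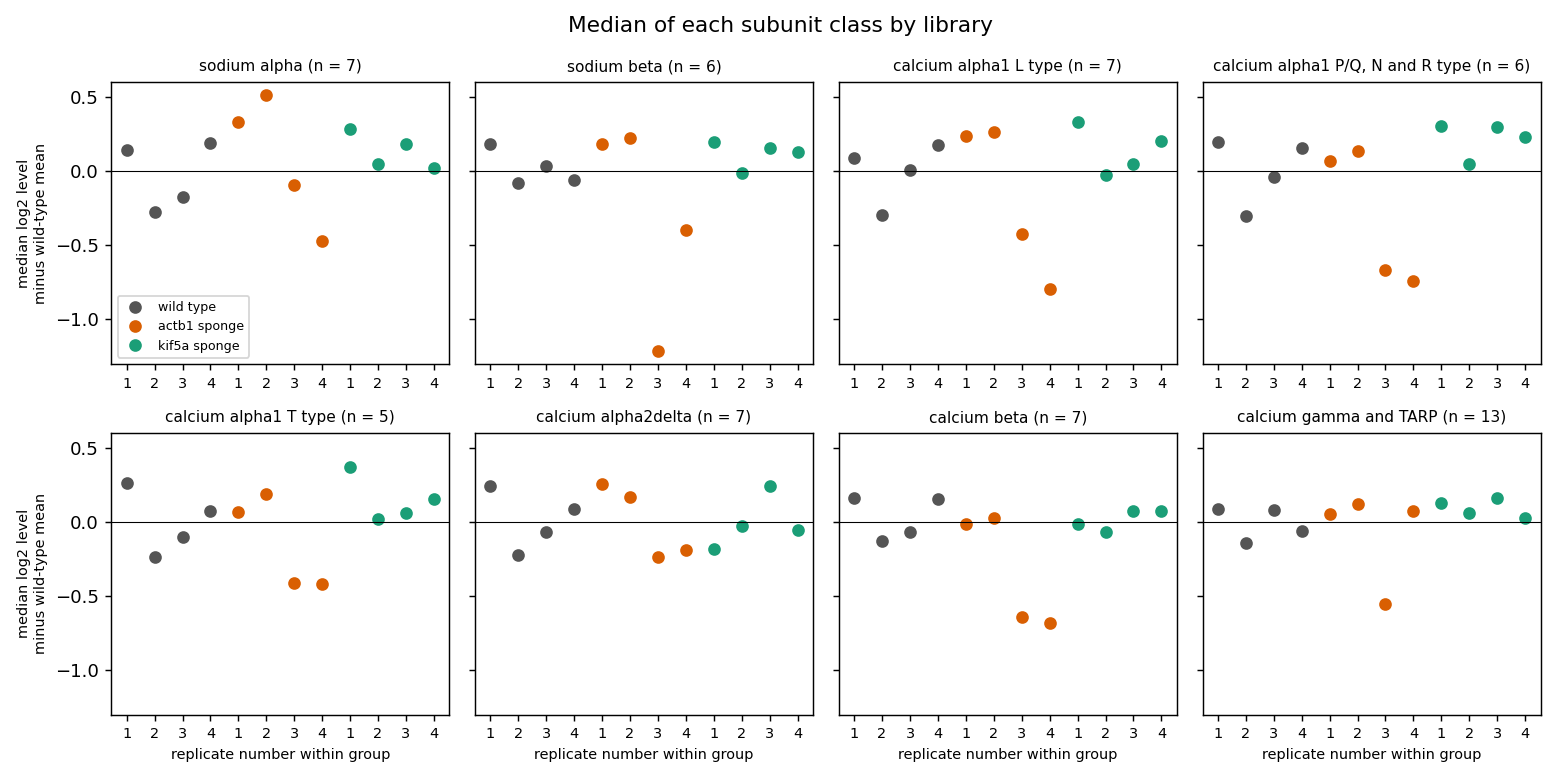
Median log2 level of each subunit class in each of the 12 libraries, relative to the wild-type mean of the same genes. In most classes libraries 3 and 4 of the actb1 line lie lowest; the gamma and TARP class is low in library 3 (-0.55) and not in library 4 (0.08).

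Between the lines, no channel gene was called (0 of 58, against 1.18% of all genes by edgeR, with 0.540% higher and 0.641% lower). DESeq2, which called 455 of all genes higher against 106 by edgeR, called CACNA1E (higher) and limma none. An unadjusted p under 0.05 was reached by 12 genes (20.7%, against 16.2% of all genes), 11 of them higher in the kif5a line (19.0%, against 8.06% of all genes for that direction) and 1, cacna2d1a, lower (1.72%, against 8.19%). The median log2 difference of the kif5a line from the actb1 line was 0.24 (all genes, 0.00), with 41 of 58 positive (70.7%, against 50.6% of all genes) and 17 negative (29.3%, against 49.4%). The 95% interval lay within 2-fold either way for 44 genes (75.9%, against 75.5%). Without actb1 libraries 3 and 4 the median difference was -0.05, with 21 of 58 positive, and none was called. The positive share over all genes in that fit is not given here. In it, 6 channel genes had an unadjusted p under 0.05 (10.3%, against 13.0% of all genes). Of these, 3 were higher (5.17%, against 6.70% of all genes) and 3 lower (5.17%, against 6.28%). A test for any difference among the 3 groups called none either (1.54% of all genes), with 9 channel genes at an unadjusted p under 0.05 (15.5%, against 18.2%).

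CACNA1E had the smallest p. Its actb1 values are given above, and in the kif5a line it was at 94.2, 87.2, 94.96 and 89.2 CPM, above every actb1 library. The log2 difference was 0.64 ± 0.16 (adjusted p = 0.0856 by edgeR). DESeq2 gave an adjusted p of 0.00968, removal of the length trend gave 0.0343, and leaving out 1 library at a time gave 0.0609 to 0.176. CACNA2D2 was at 104, 99.7, 88.9 and 67.7 CPM in the actb1 line and at 138, 108, 131 and 132 in the kif5a line, with no overlap (log2 0.50 ± 0.16, adjusted p = 0.156). CACNA1H and cacng6b were the other genes without overlap (4 of 58 or 6.90% higher, against 5.70% of all genes, and none lower, against 4.68%). Their log2 differences were 0.75 ± 0.25 (adjusted p = 0.167) and 2.24 ± 0.64 (adjusted p = 0.119). Of these, cacng6b passed the CPM minimum only through libraries of wild type and the kif5a line. Without actb1 libraries 3 and 4 the differences were 0.36 ± 0.12 for CACNA1E, 0.33 ± 0.17 for CACNA2D2 and 0.40 ± 0.22 for CACNA1H (adjusted p = 0.255, 0.446 and 0.484), and cacng6b had an adjusted p of 0.330.

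Of the other genes that came up in this comparison, CACNA1B (ENSDARG00000079295) was at 13.6, 17.1, 10.2 and 7.23 CPM in the actb1 line and at 21.3, 17.1, 21.0 and 18.7 in the kif5a line (log2 0.70 ± 0.23, adjusted p = 0.159 by edgeR). CACNA1S (ENSDARG00000029457) stood at 1.71, 1.83, 1.96 and 0.748 CPM in the kif5a line, with library 4 within the range of the actb1 line (log2 1.15 ± 0.38, adjusted p = 0.163). Without actb1 libraries 3 and 4 these differences were 0.35 ± 0.18 and 0.68 ± 0.39 (adjusted p = 0.446 and 0.494). A list of skeletal muscle genes stood, as log2 against the wild-type mean, between -0.60 and 0.96 in the actb1 libraries and between -1.24 and -0.50 in the kif5a libraries, the opposite order to CACNA1S. The wild-type libraries spanned -0.81 to 0.86, and the part of muscle tissue in these values was not tested. cacna2d1a was at 27.1, 27.0, 27.9 and 21.0 CPM in the actb1 line, and 3 of these libraries lay above every kif5a library (log2 -0.40 ± 0.14, adjusted p = 0.185), with -0.48 ± 0.15 (adjusted p = 0.225) once libraries 3 and 4 of the actb1 line were left out.

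**Figure D4:**
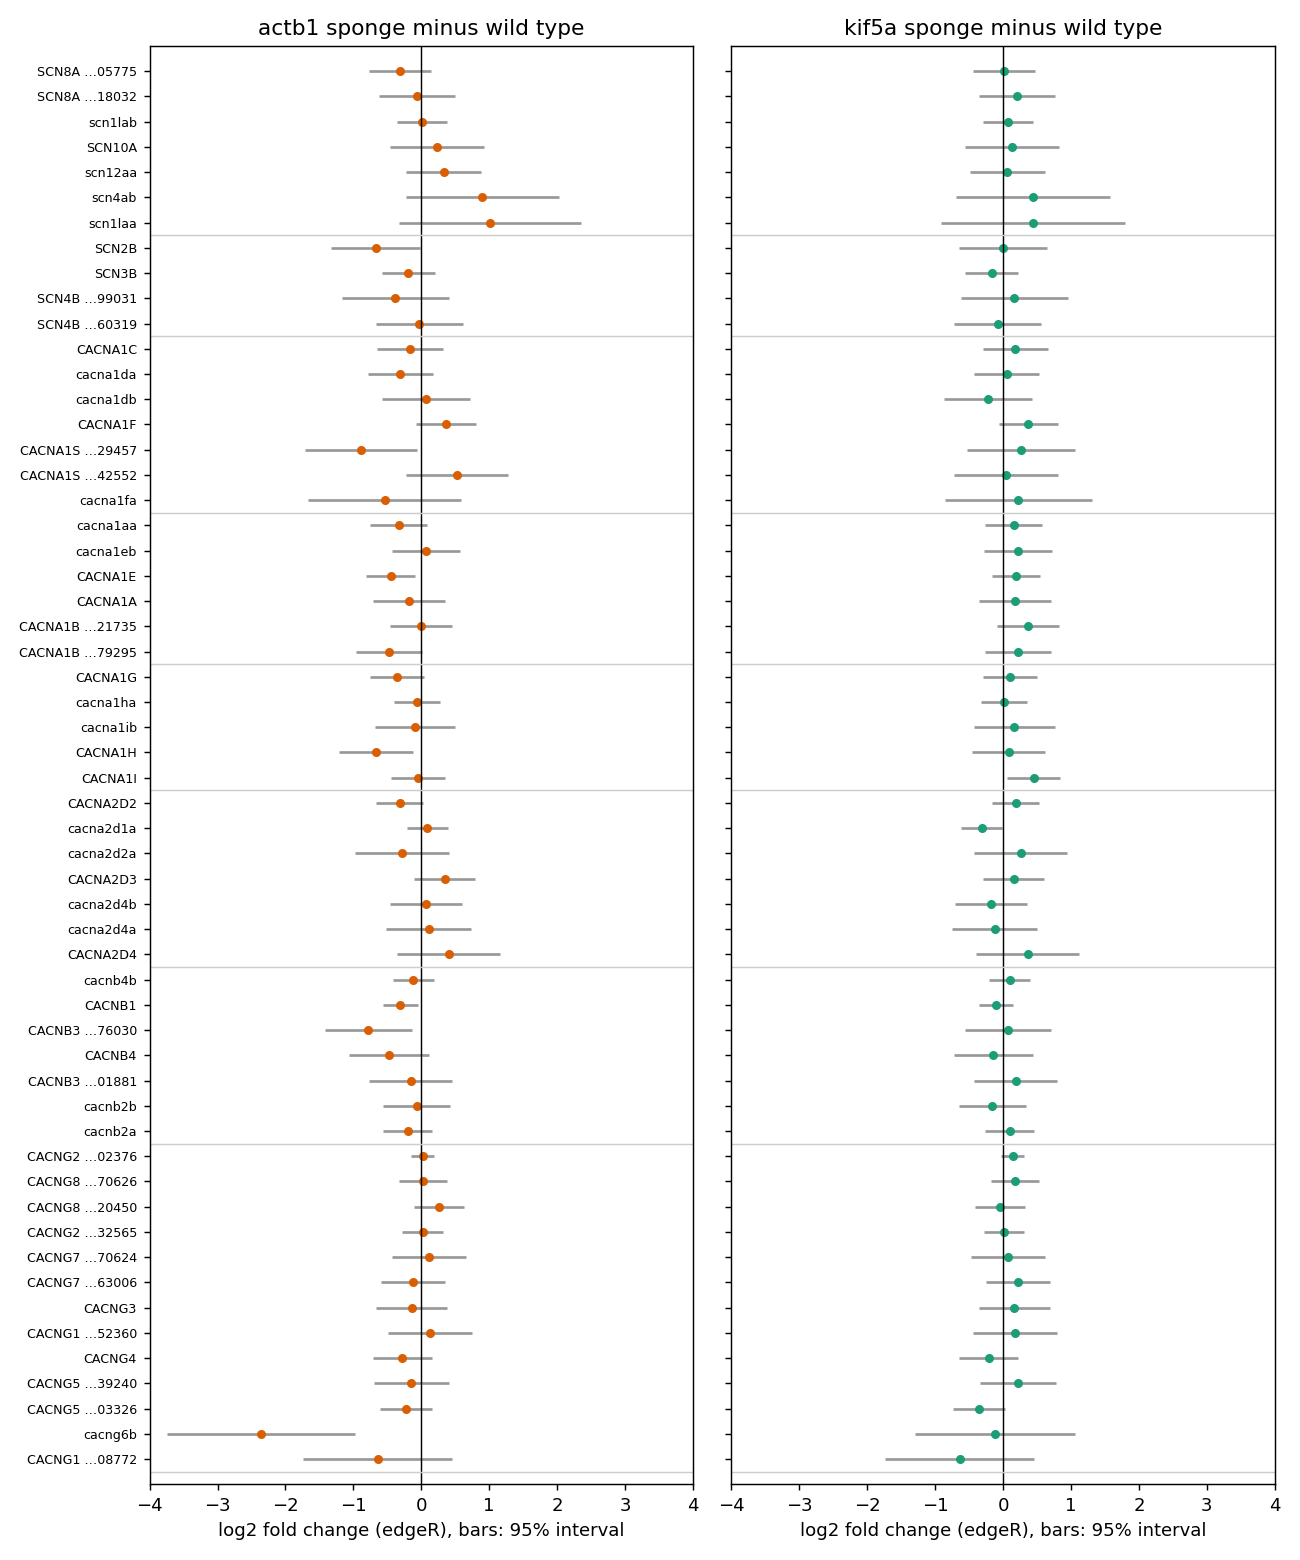
log2 difference with its 95% interval for 56 tested channel genes, on the left for the actb1 line against wild type and on the right for the kif5a line against wild type, grouped by subunit class. The intervals are widest for genes of few counts such as cacng6b (-2.36 in the actb1 line), and no gene passed the adjusted threshold.

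Genes whose products bind or place the channels were counted as well. The sodium channel list holds 24 genes for 21 symbols, among them the ankyrins of the axon initial segment, the FGF homologous factors that bind the channel tail, the node adhesion molecules and the NALCN leak channel complex. All 24 were tested. None was called by edgeR, DESeq2 or limma in any of the 3 comparisons. By edgeR, an unadjusted p under 0.05 was reached by 3 in the actb1 line against wild type (12.5%, against 16.7% of all genes), by 1 in the kif5a line against wild type (4.17%, against 11.3%) and by 4 between the lines (16.7%, against 16.2%). The medians in these comparisons were -0.10, 0.08 and 0.19. In actb1 libraries 1, 2, 3 and 4 the list averaged log2 0.06, 0.10, -0.35 and -0.41 relative to the wild-type mean. Medians of the list without libraries 3 and 4 are not given here. FGF14 had the smallest p in the actb1 line against wild type, at 15.7 ± 1.03 CPM in the line and 19.99 ± 1.43 in wild type (SD, n = 4; log2 -0.35 ± 0.11 SE, adjusted p = 0.151 by edgeR).

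The calcium channel list holds 66 genes for 46 symbols, among them the active zone scaffolds RIM, RIM-BP, Bassoon and Piccolo, calmodulin and CaM kinase II, the ryanodine receptors and the junctophilins, and 61 were tested. In the actb1 line 1 gene rose (background for higher 0.280%) and none fell; DESeq2 called 2, with gnb1a as the other, and limma 1. The gene was DLG4 (ENSDARG00000039385), the synaptic scaffold PSD-95 that binds TARPs. It was at 66.0, 58.6, 66.8 and 65.6 CPM in wild type, at 82.8, 91.3, 111 and 85.2 in the actb1 line and at 64.4, 59.4, 64.2 and 75.6 in the kif5a line. Each actb1 library lay above each of the other 8. By edgeR, 3 of the 61 listed genes had an unadjusted p under 0.05 in the actb1 line against wild type (4.92%, against 16.7% of all genes).

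DLG4 was higher in the actb1 line than in wild type by log2 0.53 ± 0.11 (adjusted p = 0.0465 by edgeR) and lower in the kif5a line than in the actb1 line by -0.49 ± 0.11 (adjusted p = 0.0491). The call against wild type held in 1 of 8 fits that left out a library of those groups (adjusted p 0.0488 to 0.123) and was lost with the length trend removed (0.0512). The call between the lines also held in 1 of 8 (0.0368 to 0.153). Fits of only the 2 groups compared lost both calls (adjusted p = 0.0998 and 0.112 by edgeR). Without actb1 libraries 3 and 4 DLG4 differed by 0.44 and -0.40 (adjusted p = 0.1003 and 0.124). Library 3, low for most channel genes, was the highest for DLG4. Its duplicate ENSDARG00000041926 stood at 31.6 ± 9.18 CPM in wild type and 28.3 ± 11.5 in the actb1 line (SD, n = 4; adjusted p = 0.8285 by edgeR).

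In the kif5a line no calcium partner gene was called against wild type by any of the 3 tools, with 5 at an unadjusted p under 0.05 by edgeR (8.20%, against 11.3% of all genes). Between the lines edgeR and limma each called 1 gene lower, DLG4 in edgeR, while DESeq2 called DLG4 lower and 2 genes higher, rims2a and RIMBP2 (ENSDARG00000104101; adjusted p = 0.0482 and 0.00382 by DESeq2). Over all genes DESeq2 called 455 higher in this comparison, against 106 by edgeR, and edgeR called 0.641% lower. By edgeR, 10 of the 61 listed genes had an unadjusted p under 0.05 between the lines (16.4%, against 16.2% of all genes). RIMBP2 ties calcium channels to the active zone. RIMBP2 was at 87.3 ± 4.38 CPM in the kif5a line, 58.6 ± 11.1 in the actb1 line and 67.8 ± 8.79 in wild type (SD, n = 4). The actb1 libraries stood at 64.9, 69.9, 45.1 and 54.5, with libraries 3 and 4 below every other library of the 3 groups. A difference of RIMBP2 without these libraries is not given here. Its log2 difference between the lines was 0.57 ± 0.13 (SE, adjusted p = 0.0605 by edgeR). The medians of the 61 genes were -0.03, 0.11 and 0.12 in the actb1 line against wild type, the kif5a line against wild type and the kif5a line against the actb1 line. In actb1 libraries 1, 2, 3 and 4 the list averaged log2 0.08, 0.15, -0.07 and -0.29 relative to the wild-type mean.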

How the data were processed

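The strain label of each sample gave its group. Per the labels' protocols, libraries were made with the TruSeq RNA Library Preparation Kit, version 2, which does not mark strand, so reads of a gene and an antisense partner cannot be told apart. The submitters' processing notes name genome build GRCz10, featureCounts 1.4.6-p4, STAR 2.4.1d and bcl2fastq 1.8.4. The sources used here give no annotation release.

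The authors deposited whole-number counts per gene, which were the input of every test. They also deposited RPKM values, in which the library totals run down the genes rather than across the libraries (median coefficient of variation of the implied gene length 1.48e-05 under that reading and 0.179 with own totals, 6540 genes). The deposited RPKM therefore served only to recover transcript lengths, and levels per length were recomputed from TMM-scaled CPM.

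Genes above 0.5 CPM in at least 4 libraries (19645, with 99.9% of the counts) entered 1 edgeR 4.0.16 quasi-likelihood fit of all 12 libraries in R 4.3.3, with p adjusted by Benjamini-Hochberg over all genes and called under 0.05. DESeq2 1.42.0, limma 3.58.1, other scalings, no filter, fits of 2 groups and leaving out each library were alternatives. The fit was also run on simulated counts, drawn gene by gene without a shift of many genes in a library. The outcome is not given here. log2 levels per library used a prior count of 2, and the class medians, marker lists and colour plot are relative to the wild-type mean.

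The members and lists were chosen with earlier results of these data known. Full values were given by rule: called members, the 6 of smallest p per comparison, the 2 highest and the lowest per class, and members known from retina or muscle. Other genes named with values (such as CACNG3, DLG4 and RIMBP2) were chosen after their values were seen. The age of the fish is 6 months in all groups. Values of some channel genes are not reported here, though counts, sums and medians over the classes include them.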

Additional observations from a re-analysis of the deposited data

Results flagged for a closer look

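In 6 of 117 groups (39 channel genes named by rule in 3 groups of 4 libraries each), 1 library lay far from the other 3 by Dixon's criterion of the gap to the nearest library over the range. Chance alone gives about 1 in 20 groups. CACNB1 stood at 42.2 CPM in actb1 line library 4, beside 57.7 to 59.95 in the other libraries of that line. cacna2d1a stood at 21.0 CPM in the same library, beside 27.0 to 27.9. scn1laa stood at 3.13 CPM in actb1 line library 2, beside 0.404 to 0.810. CACNG1 stood at 2.17 CPM (ENSDARG00000008772, others 0.373 to 0.521) and at 6.52 CPM (ENSDARG00000052360, others 3.88 to 4.17), both in wild-type library 3. scn4aa stood at 0.0346 CPM in kif5a line library 2, which is 1 count, and at 0 in the other 3.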

How the results depend on the processing

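The count of channel genes called was 0 in all 3 comparisons and in the test among the 3 groups. DESeq2 called 1 lower in the actb1 line against wild type (cacng6b, beside 485 of all genes). It called 1 higher in the kif5a line against the actb1 line (CACNA1E, beside 455 of all genes). CACNA1E was also the 1 called with the trend over transcript length removed (105 of all genes). Leaving out 1 library at a time gave 0 to 1 lower in the actb1 line and 0 to 1 in the test among the groups (cacng6b without wild-type library 3), and 0 to 0 in the other counts (12 fits each). Without the 5 libraries high in photoreceptor genes, the median log2 difference of the channel genes was -0.46 for the actb1 line against wild type. It was 0.64 for the kif5a line against the actb1 line. That setting leaves actb1 line library 4, low for most channel genes, as the only library of its line, assumed to vary like the others. Counts of genes called are therefore not given for that setting, though they were not 0. The length and photoreceptor settings, and leaving out actb1 libraries 3 and 4 together, were chosen after seeing the data. Of 400 alternatives over 20 differences of single genes, 0 reversed and 6 newly passed the threshold. Some of the 6 come from the photoreceptor setting. Both called differences, those of DLG4, fell short of the threshold in most of their alternatives. No paired analysis was possible because the labels give no replicate numbers, and those used here follow accession order. Changes beyond 2-fold lay outside the 95% interval for 45 of 58 channel genes in the actb1 line and 51 for the kif5a line, both against wild type, and genes with few counts, such as scn4aa and cacng6b, are limited by depth.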
